A study of Mus musculus with 4 samples.

Results

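The cells described here are *Hand1*-high, *Isl1*-negative mesodermal cells of mouse gastruloids at day 5. They were chosen by a gate on 4 genes in cells with 2000 or more UMIs (unique molecular identifiers, the counted RNA molecules) and a mitochondrial share under 20%. A cell entered the gate with 10 or more *Hand1* UMIs, 0 *Isl1* UMIs, under 3 *Epcam* UMIs and 0 *Cdh5* UMIs. The gate held 1123 of the 7408 day 5 cells within these limits, or 15.2% (exact 95% interval 14.3 to 16.0). *Epcam* marks epithelial cells and *Cdh5* marks endothelium, and the gate left out cells that passed these limits. Cells of either type with fewer of these UMIs could still enter. The levels of *Hand1*, *Isl1*, *Epcam* and *Cdh5* are set by this choice and are given below as description only.

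HAND1 and HAND2 are basic helix-loop-helix transcription factors that bind DNA as partners of the E proteins. In the mouse embryo *Hand1* is known from extraembryonic mesoderm, lateral plate mesoderm and the edge of the early heart field, where BMP signalling is active, and *Isl1* is known from second heart field and cardiopharyngeal progenitors. Gastruloids are aggregates of embryonic stem cells that form the germ layers in culture.

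The gastruloids were grown from the wild type mouse embryonic stem cell line Zx1. They were exposed for a limited time to the WNT agonist CHIR99021, and from day 4 the medium held bFGF, VEGF and ascorbic acid. Cells of several pooled gastruloids made 1 droplet library of 3′ RNA ends at each of days 4, 5, 6 and 11. Each day is therefore 1 library of 1 cell line, the day and the library cannot be told apart, and there were no replicates and no tests. All intervals are at 95%, cover counting error only and do not hold the spread between cultures.

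The day 5 library held 7794 barcodes and 236714826 UMIs. Gated cells had a median of 32315 UMIs and the 6285 other day 5 cells a median of 27538, so the gate on a number of UMIs took deeper cells. The lowest depth of a gated cell was 13199 UMIs. The median mitochondrial share was 2.72% in gated cells and 2.68% in the others. The day 5 library shared 13, 19 and 23 barcodes with days 4, 6 and 11, and 6 of the gated cells carried such a barcode.

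The other day 5 cells fell into 5 sets by the same 4 genes. *Hand1*-high *Isl1*-positive cells (658 cells) and *Hand1*-low *Isl1*-negative cells (2862 cells) each differ from the gate in 1 gene, and were used as the nearest sets. The remaining sets were *Hand1*-low *Isl1*-positive cells (835 cells), *Cdh5*-positive cells (224 cells) and *Epcam*-positive cells (1706 cells). Levels are counts per 1000000 UMIs of a set (CPM, here the unit and not cardiopharyngeal mesoderm), and a difference is the ratio of the levels of 2 sets. A gene was called higher or lower when it reached 10 CPM in either set and its ratio was at least 1.5 in that direction.

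The named markers did not all set the gated cells apart. *Hand1* was at 483 CPM in the gate and 157 CPM outside it, which the gate fixed. The number of *Hand1* UMIs per gated cell ran from 10 to 70 with a median of 16. *Hand2*, the paralog of *Hand1*, was at 82.8 CPM against 54.4 CPM in all other day 5 cells, a ratio of 1.52 (95% interval 1.46 to 1.58). *Gata6*, a zinc finger factor of cardiac mesoderm and endoderm, was at 59.7 CPM against 53.6 CPM, a ratio of 1.11 (1.07 to 1.16). *Gata6* was thus close to its level in the rest of the library, and the cells are called here by the gate rather than by a cell type.

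The marker lists of other cell types were low in the gate, and several were low outside it too. The 10 cardiomyocyte markers summed to 9.04 CPM in gated cells and 11.1 CPM in the other day 5 cells. In the gate 9 of the 10 were under 1 CPM and *Myh6* was at 0. All 6 epicardium markers were under 1 CPM, with a sum of 2.19 CPM against 3.26 CPM outside. The 9 endoderm markers other than *Epcam*, which the gate limits, summed to 6.90 CPM, against 228.4 CPM in the other cells. The 8 somitic markers summed to 5.08 CPM against 14.8 CPM outside, and the 8 neural markers to 3.61 against 20.6 CPM. Each list had 7 under 1 CPM in the gate. The 8 markers of amnion and surface ectoderm summed to 13.0 CPM, mostly *Gata3* at 8.84, against 19.3 CPM outside. The 7 trophoblast markers summed to 38.2 CPM, of which *Cdx2*, also a posterior mesoderm gene, made 32.5, against 49.3 CPM outside. Blood markers summed to 8.99 CPM with no embryonic globin UMI, against 16.6 CPM outside. The 7 epiblast markers summed to 38.6 CPM against 486.9 CPM outside the gate. The 9 endothelium markers other than *Cdh5* summed to 133.0 CPM, of which *Egfl7* made 101.0, against 176.8 CPM outside. The *Epcam* and *Cdh5* limits also leave out cells that carry the other markers of these lists, so the lower sums are in part set by the gate.

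Cells on both sides of the *Hand1* threshold were close for some genes and not for others. Cells with 10 or 11 *Hand1* UMIs (228 cells, median 30321.5 UMIs) had *Smarcd3* at 65.7 CPM, *Msx2* at 81.3 CPM and *Hand2* at 82.3 CPM. Cells just outside, with 8 or 9 *Hand1* UMIs (262 cells, median 26801 UMIs), had these genes at 51.1, 80.0 and 75.4 CPM. *Tbx20* was at 14.2 CPM inside and 9.15 CPM just outside, and *Prrx1* at 8.61 and 15.4 CPM. Of these genes, the intervals did not overlap for *Smarcd3* and *Prrx1*. *Dppa5a* was at 39.3 CPM inside and 9.28 CPM outside, against its order in the whole comparison.

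Against all other day 5 cells, 78 of 7528 genes were higher in the gate (1.04%) and 268 were lower (3.56%), and the median log2 ratio of all tested genes was 0.0016. The leading genes that were higher included a subunit of a chromatin remodelling complex used in the heart, BMP pathway genes and secreted or membrane proteins of early mesoderm. The leading genes that were lower were mostly known from pluripotent cells, endoderm and endothelium. Genes were ranked by the ratio after 10 CPM was added to both levels, among genes at 50 CPM or more in the higher set.

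**Figure D1:**
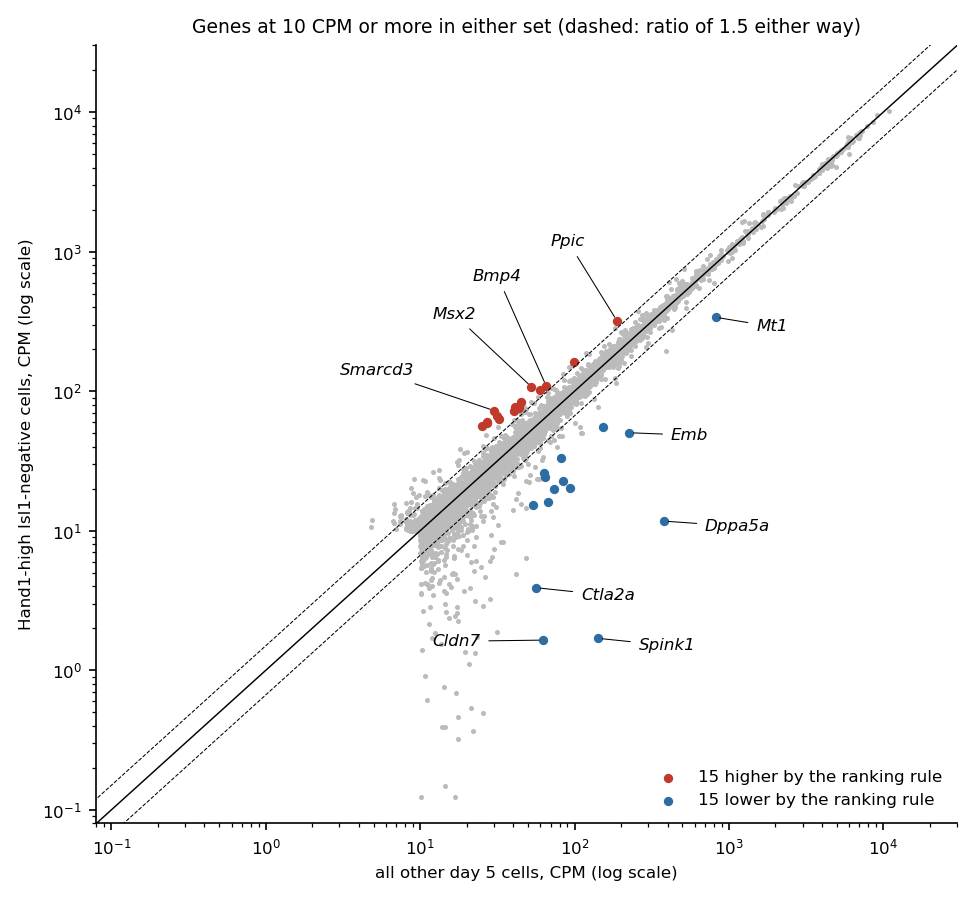
Level of each gene in *Hand1*-high *Isl1*-negative cells (vertical axis, CPM, log scale) against all other day 5 cells (horizontal axis, CPM, log scale), for genes at 10 CPM or more in either set and above 0 in both. Red and blue points are the 15 leading genes in each direction. The red points lie close above the upper dashed line (*Smarcd3*, ratio 2.41), and the blue points reach much further below the lower one (*Dppa5a*, ratio 0.0307).

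*Smarcd3*, which encodes the BAF60c subunit of the BAF chromatin remodelling complex in heart progenitors, led the higher genes. It was at 72.6 CPM in the gate and 30.1 CPM outside (ratio 2.41, 2.31 to 2.52). The gene *Asb4*, a component of a ubiquitin ligase, was at 56.7 against 25.02 CPM (ratio 2.26). *Msx2*, a homeobox gene that responds to BMP, was at 107.7 against 52.5 CPM (ratio 2.05, 1.98 to 2.13). The ratios of these 3 genes were above 2, and those of the other leading genes were between 1.64 and 2.20.

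They were *Stard8*, a GTPase-activating protein (2.20), *Fgf3*, a fibroblast growth factor (2.19), *Tmem108* (2.13), *Unc5c*, a netrin receptor (1.93), *Rnd3*, a small GTP-binding protein (1.89), and *Cfc1*, the NODAL co-receptor Cryptic (1.88). *Tbx3*, a T-box repressor, had a ratio of 1.79. *Ahnak*, *Tmem88*, a WNT pathway inhibitor, *Ppic*, *Bmp4* and *Ptpn18* had ratios of 1.73, 1.72, 1.71, 1.67 and 1.64. None of the 15 leading genes reached a ratio of 2.5.

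At the other end, *Dppa5a*, a gene of pluripotent cells, was at 11.7 CPM in the gate and 381.5 CPM outside (ratio 0.0307). A single gated cell held 37.5% of the *Dppa5a* UMIs of the gate and 11 cells held 68.1%. Endoderm and epithelial genes were similarly low: *Spink1* was at 1.69 against 141.9 CPM and the claudin gene *Cldn7* at 1.65 against 62.4 CPM. *Ctla2a* was at 3.90 against 56.6 CPM, with 872.9 CPM in *Cdh5*-positive cells. The other genes of the 15 included *Emb*, *Hspb1*, *Fabp3*, *Chchd10*, *Spint2*, *Cystm1*, *Slc2a3*, *Mt1*, *Pcbd1* and *Sdc4*, with ratios between 0.216 and 0.414.

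The promoters of 3 leading genes are printed: *Smarcd3* and *Msx2*, ranked 1 and 3, and *Bmp4*, ranked 15, which with *Msx2* belongs to the BMP pathway. They were chosen among the 12 with an entry after the values were seen. They are the 250 bases before the RefSeq transcript start in GRCm38.p6, read 5′ to 3′ on the gene's strand, which is the minus strand for all 3. *Smarcd3* is at chr5:24602003-24602252, *Msx2* at chr13:53472781-53473030 and *Bmp4* at chr14:46390670-46390919. Capitals mark the E-box CANNTG, the core that basic helix-loop-helix dimers bind, which reads the same way on both strands.
Smarcd3: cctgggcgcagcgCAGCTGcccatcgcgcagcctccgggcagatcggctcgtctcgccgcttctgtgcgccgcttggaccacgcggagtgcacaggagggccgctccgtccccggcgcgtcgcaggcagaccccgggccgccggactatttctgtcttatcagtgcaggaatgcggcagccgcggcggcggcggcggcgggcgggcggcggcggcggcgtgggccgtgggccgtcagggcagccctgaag
Msx2: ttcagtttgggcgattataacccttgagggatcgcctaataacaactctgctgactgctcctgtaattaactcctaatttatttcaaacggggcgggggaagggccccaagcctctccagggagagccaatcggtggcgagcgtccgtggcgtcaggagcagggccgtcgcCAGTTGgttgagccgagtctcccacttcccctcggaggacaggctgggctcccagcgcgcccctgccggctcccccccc
Bmp4: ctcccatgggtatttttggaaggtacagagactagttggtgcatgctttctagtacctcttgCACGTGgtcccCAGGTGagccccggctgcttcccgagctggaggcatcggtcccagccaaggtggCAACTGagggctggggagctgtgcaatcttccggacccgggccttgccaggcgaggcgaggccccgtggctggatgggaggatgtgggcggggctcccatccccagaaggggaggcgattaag
*Smarcd3* and *Msx2* each held 1 E-box in this window and *Bmp4* held 3. The table of promoters had an entry for 12 of the 15 leading higher genes, with 14 promoters. An E-box was in 9 of these 14 (64.3%), all 3 printed windows among them, and in 66.2% of all 32851 promoters searched over the same length. The form CATCTG, or CAGATG on the other strand, which HAND proteins bind with E proteins and which is one of the E-boxes counted above, was in 2 of the 14 (14.3%) and in 14.4% of all. These shares were close to those of all promoters, and the letters describe the windows only.

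The heart field regulators, a list of 17 genes, had 7 at a testable level, of which 5 were higher in the gate and 0 lower. Over all 7528 tested genes 1.04% were higher and 3.56% lower. These shares are the background for this and each later list compared with all other day 5 cells. The median ratio of the 7 was 1.67. The genes that were higher were *Hand2*, *Tbx2*, *Tbx3*, *Tbx20* and *Smarcd3*. *Tbx20*, a T-box factor of the cardiac crescent, was at 15.5 CPM against 6.76 CPM (ratio 2.30, 2.09 to 2.53). *Tbx2*, a repressor of chamber genes, was at 13.9 against 8.36 CPM (ratio 1.67). Below the limit of 1.5 were *Gata6* and *Gata4*, the latter at 13.6 against 10.6 CPM (ratio 1.29). Other regulators of the list were scarcely seen: *Nkx2-5* was at 0.368 CPM, *Myocd* at 0.123 CPM, *Tbx5* at 1.45 CPM and *Mab21l2* at 0.221 CPM. They were also scarce in *Isl1*-negative cells left with 0 *Hand1* UMIs after thinning to 5000 UMIs (0.332, 0.215, 1.41 and 0.410 CPM).

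The order of the sets differed among these regulators. *Smarcd3* and *Tbx20* were highest in the 2 *Hand1*-high sets, at 72.6 and 61.5 CPM for *Smarcd3* and at 15.5 CPM in both for *Tbx20*. The *Hand1*-low *Isl1*-negative cells had *Smarcd3* at 28.1 and *Tbx20* at 4.52 CPM. *Hand2* was highest in the *Isl1*-positive sets instead, at 105.5 CPM in *Hand1*-high and 98.3 CPM in *Hand1*-low cells, with 82.8 CPM in the gate and 47.1 CPM in *Hand1*-low *Isl1*-negative cells. *Gata6* was also highest in the *Isl1*-positive sets, at 72.8 CPM in *Hand1*-high and 74.6 CPM in *Hand1*-low cells. It was at 59.7 CPM in the gate and 45.7 CPM in *Hand1*-low *Isl1*-negative cells. For *Gata6* the intervals of the 2 *Isl1*-positive sets overlapped.

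**Figure D2:**
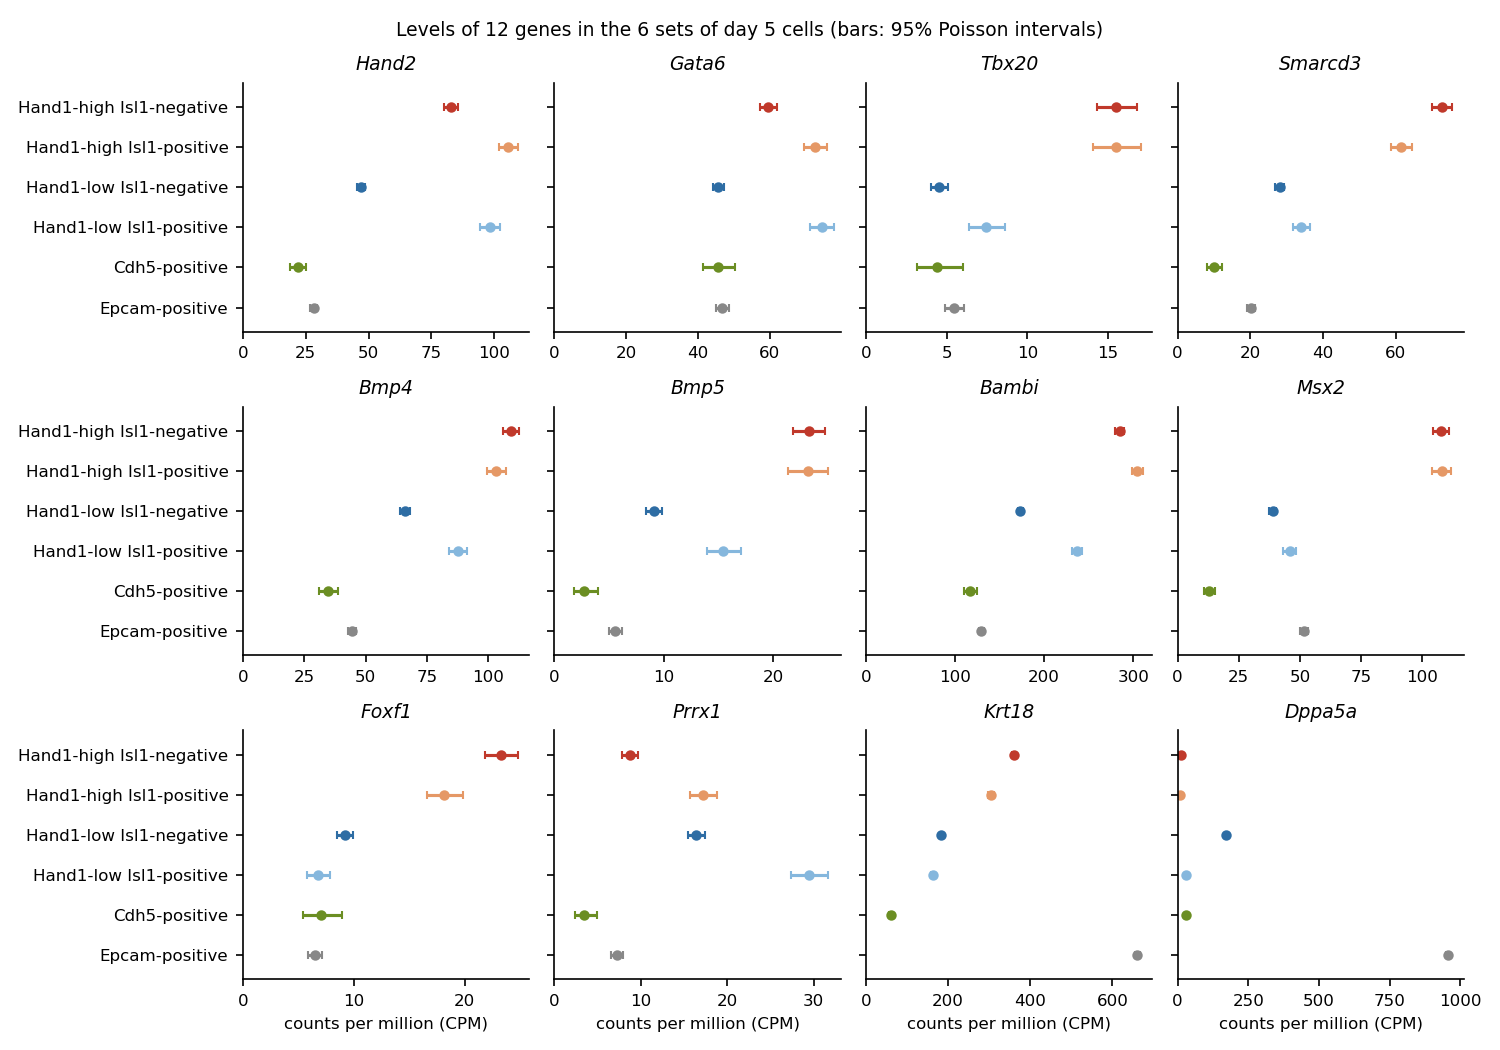
Level in CPM (horizontal axes, each from 0) of 12 genes in the 6 sets of day 5 cells (rows), with bars for 95% Poisson intervals. *Tbx20*, *Bmp5* and *Msx2* were alike in the 2 *Hand1*-high sets and lower in the other 4, while *Hand2*, *Gata6* and *Prrx1* were higher in *Isl1*-positive cells (*Prrx1*, 29.5 CPM in *Hand1*-low *Isl1*-positive and 8.74 CPM in gated cells).

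Within the gate the levels were uneven from cell to cell. Per-cell *Smarcd3* had a median of 56.5 CPM with quartiles of 22.7 and 111.9, and *Msx2* a median of 91.4 CPM with quartiles of 40.0 and 160.5. *Tbx20* and *Foxf1* had a median of 0. At least 1 UMI of *Msx2* was found in 87.8% of gated cells. The share was 23.2% in *Cdh5*-positive cells, a set of another cell type with a median of 34053 UMIs. After every cell was thinned to 10000 UMIs these shares were 61.9% and 10.0%. For *Smarcd3* the shares were 79.2% and 19.2%, and 48.3% and 8.14% after thinning. The shares in the gate stayed above those of *Cdh5*-positive cells at equal depth for both genes. Neither gene was called between the gate and *Hand1*-high *Isl1*-positive cells, so the contrast is not particular to the gate.

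Contractile genes split in both directions. Of 16 genes, 7 were tested, 2 were higher and 3 lower, with a median ratio of 1.03. *Tnni1*, the slow skeletal troponin I that is also used in the embryonic heart, was at 32.3 CPM against 17.8 CPM (ratio 1.82). *Nexn*, an actin-binding protein of the Z-disc, was at 20.3 against 13.3 CPM (ratio 1.52). The atrial myosin light chain gene *Myl7* was at 10.3 against 20.3 CPM (ratio 0.507), cardiac actin *Actc1* at 1.84 against 12.5 CPM (ratio 0.147) and *Tagln* at 7.76 against 13.6 CPM (ratio 0.569). The outside level of the genes that were lower was led by *Epcam*-positive cells, in which *Myl7* was at 29.1 CPM. All 3 were also lower than in *Hand1*-low *Isl1*-negative cells, which meet the same *Epcam* limit as the gate.

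Most BMP ligand genes were higher in the gate than in all other day 5 cells. Against *Hand1*-high *Isl1*-positive cells no BMP ligand, receptor, SMAD, inhibitor or target gene was called. The ligand genes summed to 186.0 CPM in the gate and 183.6 CPM in that set, so the difference is not particular to the gate. These ligands signal through paired receptors to SMAD1, SMAD5 and SMAD9, and the pathway induces its own inhibitors. Of 5 ligand genes 4 were tested and 3 were higher, with none lower. *Bmp4* was at 109.3 against 65.4 CPM (ratio 1.67, 1.61 to 1.73), *Bmp2* at 12.5 against 7.47 CPM (ratio 1.67, 1.504 to 1.85) and *Bmp5* at 23.2 against 10.4 CPM (ratio 2.23, 2.06 to 2.41). *Bmp7* was at 40.5 against 41.7 CPM (ratio 0.970, 0.920 to 1.02).

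Receptors and SMADs had no call in either direction among 6 tested genes. Their ratios ran from 0.919 (*Smad5*) to 1.06 (*Bmpr1a*). Among the inhibitors 2 of 3 tested genes were higher. *Smad6*, an inhibitory SMAD, was at 31.1 against 17.3 CPM (ratio 1.80), and *Bambi*, a decoy receptor, was at 284.6 against 182.9 CPM (ratio 1.56). *Smad7* was at 88.7 against 68.9 CPM (ratio 1.29). The secreted inhibitor *Nog* stayed under the level tested, at 5.06 against 2.52 CPM.

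Of the direct targets, *Msx2* was the 1 gene of 5 tested that passed the limit. *Msx1* was close to it, at 184.8 against 123.9 CPM (ratio 1.49, 1.45 to 1.53). The *Id* genes, inhibitors of helix-loop-helix factors, were nearer to the other cells, with ratios of 0.883 for *Id1*, 0.979 for *Id2* and 1.18 for *Id3*. The E proteins *Tcf3*, *Tcf4* and *Tcf12*, partners of HAND1, had ratios of 1.11, 1.06 and 0.954, and of the 8 genes of their list *Hand2* was the 1 called.

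Genes known from extraembryonic mesoderm and allantois gave 3 higher and 1 lower among 6 tested genes of 15 (median ratio 1.42). *Bmp4* is also in the list above. *Spin2c* was at 27.1 against 13.2 CPM (ratio 2.05) and *Ahnak* at 75.5 against 43.7 CPM (ratio 1.73), while *Hoxc9* was at 3.56 against 10.2 CPM (ratio 0.349). *Tdo2*, *Plac1* and *Pitx1* were under 10 CPM in both sets, at 1.74, 3.49 and 9.04 CPM in the gate and 0.496, 1.60 and 4.39 CPM outside. *Tbx4* at 0.0982 CPM, *Postn* at 0.0982 CPM, *Vcam1* at 0.0737 CPM and *Hoxa13* at 0.761 CPM, which mark the later allantois and chorion mesoderm, were near the limit of detection.

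The lateral plate and mesenchyme list of 17 genes had 11 tested, 3 higher and 1 lower, with a median ratio of 1.04. *Foxf1*, a forkhead factor of splanchnic and extraembryonic mesoderm, had the largest ratio of the tested genes of the list, at 23.3 against 9.18 CPM (2.54, 2.35 to 2.75). *Snai2*, a repressor of epithelial genes, was at 48.9 against 26.5 CPM (ratio 1.84), and *Twist2* at 13.7 against 8.47 CPM (ratio 1.62). *Prrx1*, a homeobox gene of later mesenchyme, was lower, at 8.74 against 14.5 CPM (ratio 0.601). *Twist1* was at 93.1 against 89.1 CPM. Of the matrix and adhesion genes, *Cdh11*, a cadherin of mesenchymal cells, was the 1 gene of 12 tested that was higher (26.5 against 12.2 CPM, ratio 2.17), and none was lower.

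Keratins were high in these mesodermal cells although *Epcam* was low. *Krt8* was at 631.5 CPM and *Krt18* at 360.5 CPM in the gate, against 308.4 and 182.6 CPM in *Hand1*-low *Isl1*-negative cells (ratios 2.05 and 1.97). *Epcam*-positive cells had 664.7 CPM of *Krt8* and 660.2 CPM of *Krt18*, so that against all other day 5 cells the ratios were 1.39 and 1.03. *Krt7* and *Krt19*, with *Cdh1*, *Cldn6*, *Ezr* and *Dsp*, were the 6 of 12 genes of this list that were lower than in all other cells, and none was higher. The other cells include the *Epcam*-positive cells that the gate leaves out, so these calls are in part set by the gate. Against *Hand1*-low *Isl1*-negative cells, which meet the same *Epcam* limit, *Krt19* was the 1 lower gene of 9 tested. There *Krt8*, *Krt18* and *Podxl* were higher.

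Genes of earlier or other mesoderm were lower or absent. Of 7 tested streak and pluripotency genes 6 were lower and none higher, among them *Mesp1* (8.50 against 13.1 CPM, ratio 0.650) and *Pou5f1* (1.89 against 31.6 CPM). The streak gene *T* was at 1.79 against 9.63 CPM, under the level tested. Of 16 cardiopharyngeal genes 3 were tested and *Fgf8* was lower (2.36 against 15.3 CPM, ratio 0.154), with 1 gated cell holding 44.8% of its UMIs in the gate. *Tbx1* was at 0.147 CPM, *Tcf21* at 0.810 CPM and *Lhx2* at 2.95 CPM. In the somitic list the WNT enhancer *Rspo3* was the 1 tested gene and was lower (29.0 against 45.3 CPM, ratio 0.639).

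The retinoic acid pathway gave 0 higher and 3 lower among 6 tested genes, with a median ratio of 0.690. Among the 3 were the binding protein *Crabp2* (10.8 against 21.6 CPM) and the receptor *Rarg* (6.53 against 10.7 CPM). In the WNT lists *Wnt2* was higher (14.5 against 9.19 CPM, ratio 1.57) and *Wnt4* lower (ratio 0.619) among 4 ligands tested, and 0 of 7 inhibitors and targets were higher. *Dkk1*, *Sfrp2* and *Sp5* were lower, at ratios of 0.492, 0.659 and 0.137. Against *Hand1*-low *Isl1*-negative cells *Sfrp2* was the 1 lower gene of 6 tested in that list, and *Nkd1* was higher. Cell cycle genes (10 of S phase and 11 of G2 and M phase) and 9 tested genes of hypoxia and glycolysis had no call, with median ratios of 1.10, 0.971 and 0.864.

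The gated cells hardly differed from *Hand1*-high *Isl1*-positive cells. Of 7305 tested genes 1 was higher (0.0137%) and 15 were lower (0.205%). The gene that was higher, *Rubie*, is a long noncoding RNA and was named after its values were seen (10.6 against 6.89 CPM, ratio 1.54). Of the 15 lower genes, *Pyy*, which encodes a gut peptide hormone, had the lowest ratio (2.63 against 11.3 CPM, ratio 0.233), followed by *Prrx1* (8.74 against 17.2 CPM, ratio 0.509). *Pyy* was also named after its values were seen. *Tgfbi*, *Irx1* and *Nid1*, named in the same way, were at ratios of 0.548, 0.639 and 0.652.

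By the ranking rule the largest ratios to this set, all under the limit of 1.5, were those of *Crip2* (ratio 1.33), *Asb4* (1.31), *Apoe* (1.26), *Phlda2* (1.23) and *Krt18* (1.19). The smallest by that rule were those of *Cenpf*, *Ube2c*, *Nusap1*, *Prc1* and *Tshz2*, all between 0.692 and 0.709, of which the first 4 act in mitosis and none passed the limit. The list of 11 G2 and M phase genes had a median ratio of 0.767 with no call. *Isl1*-positive cells were deeper, with a median of 37379.5 UMIs against 32315, and the part of depth in this was not tested. Of the *Isl1*-positive cells 62.9% held only 1 *Isl1* UMI, and after thinning to 10000 UMIs 35.4% still held any, so 0 UMIs does not show that a cell lacks *Isl1* RNA. In cells with 20000 to 40000 UMIs alone, 8 genes were higher and 53 lower.

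Against *Hand1*-low *Isl1*-negative cells, which meet the same limits for *Isl1*, *Epcam* and *Cdh5*, 106 of 7514 genes were higher (1.41%) and 226 lower (3.01%). The leading higher genes were *Msx2* (107.7 against 38.8 CPM, ratio 2.77, 2.64 to 2.91), *Stard8* (2.75), *Smarcd3* (2.59), *Cfc1* (2.50) and *Tmem108* (2.47). The leading lower genes were *Dppa5a* (ratio 0.0688), *Hoxaas3* (0.0689), *Fabp3* (0.307), *Hspb1* (0.380) and *Mt1* (0.475). *Hoxaas3* is an antisense transcript of the *Hoxa* cluster, and since strand use in the counting is not stated its reads and those of its neighbours may not be separable. The heart field list had 6 of 7 tested genes higher than in this set, *Gata4* now among them (ratio 1.83).

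Hox genes, which are expressed in order along the body axis, were largely lower than in this set. Of 39 Hox genes 20 were tested, 2 were higher and 12 lower, and their median ratio was 0.467. The clusters differed. In *Hoxa* 4 of 5 tested genes were lower (median ratio 0.133), and in *Hoxc* and *Hoxd* all 3 tested genes of each were lower (median ratios 0.175 and 0.418). In *Hoxb* 2 of 9 were higher and 2 lower (median ratio 0.855).

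The lowest ratio of the 20 was that of *Hoxa9*, at 0.909 CPM in the gate and 13.1 CPM in *Hand1*-low *Isl1*-negative cells (ratio 0.0693, 0.0485 to 0.0963). *Hoxc8* was at 3.95 against 30.7 CPM (ratio 0.129). *Hoxb5* and *Hoxb6* were higher instead, at 12.7 against 7.68 CPM (ratio 1.66) and 17.3 against 11.1 CPM (ratio 1.57). *Hoxb8* and *Hoxb9*, further along the same cluster, were lower, with ratios of 0.535 and 0.288. *Hoxb1* was within the limit at a ratio of 0.855. Against all other day 5 cells the same list had 2 higher (*Hoxb5*, *Hoxb6*) and 2 lower (*Hoxc8*, *Hoxc9*) of 12 tested genes.

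**Figure D3:**
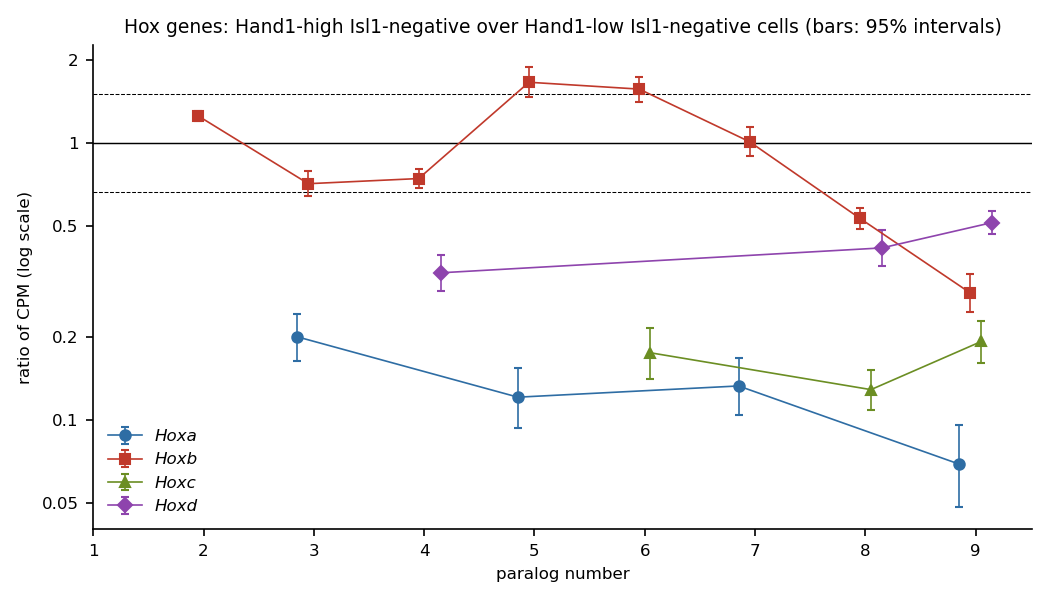
Ratio of CPM in *Hand1*-high *Isl1*-negative to *Hand1*-low *Isl1*-negative cells (vertical axis, log scale) for the 18 tested Hox genes from paralog 2 on by paralog number (horizontal axis) and cluster (colour), with 95% intervals and dashed lines at a ratio of 1.5 either way. *Hoxb* genes up to paralog 7 lie between 0.713 and 1.66, while *Hoxa*, *Hoxc* and *Hoxd* genes from paralog 3 on lie below the lower dashed line (*Hoxa9*, 0.0693).

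The same genes were followed along *Hand1* itself in 3648 day 5 cells with 0 *Isl1*, 0 *Cdh5* and under 3 *Epcam* UMIs and at least 10000 UMIs. Cells were binned by *Hand1* UMIs after thinning to 10000 UMIs, so that depth did not set the bin, and median depths were 25862.5 to 29110 UMIs. Of 7631 genes 3.15% were higher and 5.06% lower in the top bin (6 or more *Hand1* UMIs, 487 cells) than in cells with 0 (1280 cells).

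*Msx2* was at 20.8, 46.9, 77.2, 102.8 and 123.5 CPM from the lowest to the top bin, higher in each bin than in the bin below. *Smarcd3* had the same order, from 15.2 to 79.4 CPM, and so had *Tbx20*, from 1.89 to 17.4 CPM, and *Foxf1*, from 6.05 to 26.5 CPM. *Gata6* levelled off at once, at 34.0 CPM in cells with 0 *Hand1* UMIs and 54.1 CPM with 1, and between 58.9 and 62.3 CPM in the other bins. *Bmp4* had most of its difference between the first bins too, at 43.6 and 81.5 CPM and then 114.8 CPM in the top bin.

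*Hoxc8* and *Fgf8* ran the other way. *Hoxc8* was at 49.8 CPM in cells with 0 *Hand1* UMIs, 12.8 CPM in those with 1 and 4.96 CPM in the top bin, and *Fgf8* at 31.7, 13.4 and 1.37 CPM. *Hoxb6* did not follow them and was highest in the top bin, at 22.3 CPM against 13.4 CPM in cells with 0. *Cdx2* was at 35.0 CPM in cells with 0 and 35.3 CPM in the top bin, and between 29.3 and 35.9 CPM in the other bins. The share of gated cells was 1.09% in the first bin and 93.02% in the last, because the gate reads the same gene.

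**Figure D4:**
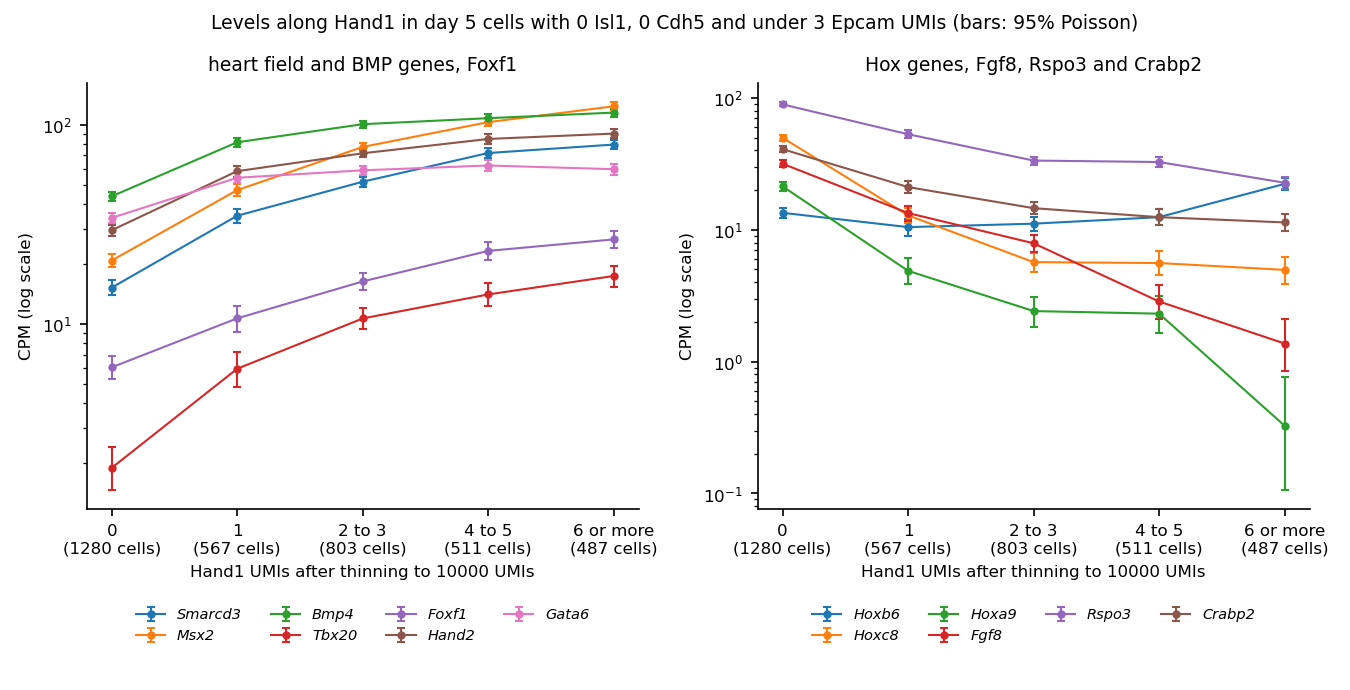
Level in CPM (vertical axes, log scale) of 13 genes in 5 bins of thinned *Hand1* UMIs (horizontal axes, number of cells in brackets), with 95% Poisson intervals. On the left *Msx2*, *Smarcd3*, *Tbx20* and *Foxf1* are higher in every bin than in the bin below, and *Gata6* is flat after the second bin (54.1 to 62.3 CPM). On the right *Hoxa9*, *Hoxc8*, *Fgf8*, *Rspo3* and *Crabp2* are lower toward the top bin, and *Hoxb6* is highest there.

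The gated cells were then clustered among themselves, without the listed genes, which gave 5 groups of 314, 306, 242, 234 and 27 cells. The groups were made from these same counts, so their leading genes are a description. Groups 1, 2 and 3 were set apart by cell cycle genes. Group 1 was led by the histone genes *Hist1h1b* (256.1 CPM against 80.8 CPM in the other gated cells), *Hist1h2ae*, *Hist1h1e* and *Hist1h1a*, with *Mthfd2*, and group 3 by the mitotic genes *Ube2c* (906.8 against 143.3 CPM), *Nusap1*, *Plk1*, *Prc1* and *Hmmr*. Group 2 had few mitotic transcripts (*Nusap1* at 9.88 against 99.9 CPM) and was led by *Hist1h2bc*, *Ung*, *Ptms*, *AY036118* and *Snhg4*, with a lower median depth of 25715 UMIs.

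Group 4 was led by *Crip2* (121.4 against 38.4 CPM), *Sct*, *Crip1*, *Ass1* and *Cyba*. *Crip2* and *Crip1* encode LIM domain proteins. *Krt18* was at 534.7 CPM in this group, against 304.3 to 339.8 CPM in groups 1 to 3. *Smarcd3* was at 96.1 CPM and *Myl7* at 23.6 CPM, against at most 71.6 and 8.48 CPM in groups 1 to 3. The posterior gene *Cdx2* was at 13.9 CPM there, against 29.8 to 44.2 CPM.

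Group 5, with 2.40% of the gated cells (1.59 to 3.48), was led by *Ctla2a* (69.7 against 1.80 CPM), *Kdr* (141.7 against 13.5 CPM), *Ramp2*, *Rspo3* and *Etv2* (86.3 against 7.43 CPM). *Kdr* encodes a VEGF receptor and *Etv2* the factor that starts the endothelial and blood lineages. *Tal1*, a further regulator of both, was at 45.1 CPM against 1.29 CPM. *Krt18* and *Krt8* were low, at 103.7 and 209.0 CPM, as was *Msx2* at 40.4 CPM. The gate asks for 0 *Cdh5* UMIs, and these 27 cells met it while carrying other endothelial genes. Without them 83 genes were higher and 270 lower than in all other day 5 cells, against 78 and 268 with them. The ratio of *Ctla2a* to all other day 5 cells was 0.0318 without them and 0.0690 with them.

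The same gate was read on every day. It held 1144 of 7202 cells at day 4 (15.9%, 15.05 to 16.7), 1123 of 7408 at day 5 (15.2%), 231 of 5850 at day 6 (3.95%, 3.46 to 4.48) and 4 of 8730 at day 11 (0.0458%, 0.0125 to 0.117). With every cell thinned to 10000 UMIs and the gate at 4 or more *Hand1* UMIs, 0 *Isl1*, under 2 *Epcam* and 0 *Cdh5*, the shares were 21.8%, 19.8%, 7.05% and 0.158%. The shares at days 4 and 5 had overlapping intervals as deposited. After thinning their intervals did not overlap (20.8 to 22.8 at day 4 and 18.9 to 20.7 at day 5). The share at day 6 was lower in both readings.

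The genes that were higher in the gate at day 5 were mostly higher in the gate on the neighbouring days. Against the cells outside it, 2.05% of 7452 genes were higher at day 4 and 5.08% of 8266 at day 6. Of the 32 named genes higher at day 5 (listed genes with the leading genes that reached the limit), 25 of 30 tested were higher at day 4 and 23 of 30 at day 6, with none lower. *Smarcd3* had ratios of 2.08, 2.41 and 1.65 on days 4, 5 and 6, *Tbx20* of 2.52, 2.30 and 2.95, and *Foxf1* of 2.23, 2.54 and 2.55. *Gata6* had ratios of 1.15 and 1.11 at days 4 and 5 and 2.11 at day 6, when it was at 333.4 CPM in the gate.

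Of the 47 named genes lower at day 5, 32 of 39 tested were lower at day 4 (background 3.5%) and 21 of 37 at day 6 (background 5.02%), with 1 higher at day 4 and 3 at day 6. *Hoxc8* had ratios of 0.123, 0.251 and 0.191 on days 4, 5 and 6, though it was under 10 CPM in both sets at day 4. The level of *Msx2* in the gate differed by day while the ratio stayed above 1.5, at 159.9 CPM on day 4, 107.7 CPM on day 5 and 11.1 CPM on day 6. *Asb4* was at 205.5, 56.7 and 291.4 CPM with ratios of 2.20, 2.26 and 2.01.

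**Figure D5:**
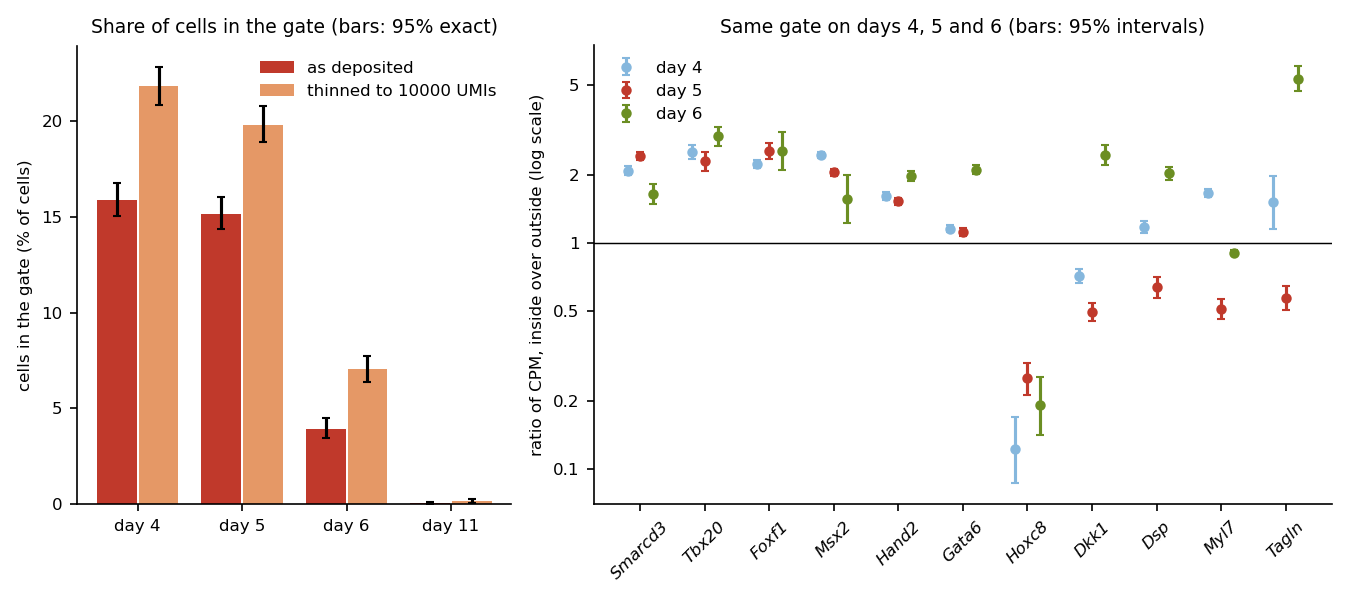
Left, share of cells in the gate on each day (bars from 0, percent) as deposited and after thinning to 10000 UMIs, with exact 95% intervals. Right, ratio of CPM inside to outside the gate (log scale) for 11 genes on days 4, 5 and 6, with 95% intervals. *Smarcd3*, *Tbx20*, *Foxf1*, *Msx2* and *Hand2* lie above 1 on all 3 days and *Hoxc8* below, while *Tagln* is at 0.569 on day 5 and 5.32 on day 6.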

How the data were processed

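The authors deposited UMI counts per gene and cell barcode for each library, raw and not normalized, with barcodes already called as cells. Per the labels, reads were processed with Cell Ranger 3.1.0 on mm10. The gene annotation is not given in the sources used here. From the deposited counts, CPM (summed UMIs of a set per 1000000), percent and ratio values were computed here with Python 3.11.15, numpy 2.4.6, scipy 1.17.1 and scanpy 1.11.5. Intervals are exact Poisson for CPM, Clopper-Pearson for shares and conditional binomial for ratios, all at 95%. Calls need 10 CPM in either set and a ratio of 1.5. Genes of the gate were left out of all calls, and no test was run because each day is 1 library.

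The members and gene lists were chosen with earlier results of these data known. Named genes are those of the lists, every Hox gene, the 15 leading genes in each direction against all other day 5 cells, 5 in each direction against the nearest sets and 5 for each group of gated cells. Leading genes exclude mitochondrial and ribosomal protein genes. Groups came from log-normalized counts, 2000 variable genes without the listed genes, 30 principal components, 20 neighbours and Leiden clustering at resolution 0.5. Doublets were not removed from the main results. Scrublet's own threshold marked 0 cells and so did not work, and leaving out the 642 highest scores (8.67% of cells) is an alternative. Promoters are from RefSeq, GRCm38.p6. The code that makes the calls was checked on simulated counts with known fold changes. Some genes that met the rule for named genes are not reported here.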

Additional observations from a re-analysis of the deposited data

Results flagged for a closer look

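The comparison of cells inside and outside the gate was repeated on days 4, 5 and 6, and 4 named genes passed the limit in opposite directions on different days. Each day is 1 library, so these differences were not tested. *Dkk1*, a secreted WNT inhibitor, had a ratio of 0.492 (0.449 to 0.539) at day 5 and 2.44 (2.21 to 2.70) at day 6. *Dsp*, a desmosome protein, had a ratio of 0.634 at day 5 and 2.02 at day 6. The smooth muscle gene *Tagln* had a ratio of 0.569 at day 5 and 5.32 at day 6, when it was at 46.5 CPM inside the gate and 8.73 CPM outside. *Myl7* had a ratio of 1.66 at day 4 and 0.507 at day 5, and at day 6 it was at 951.7 CPM inside and 1056 CPM outside. On each day the cells outside the gate include the *Epcam*-positive cells. Against the day 5 *Hand1*-low *Isl1*-negative cells, which meet the same *Epcam* limit, neither *Dkk1* nor *Dsp* was called, while *Myl7* and *Tagln* were lower. The gate held 231 cells at day 6, with a median of 24513 UMIs, against 1144 and 1123 at days 4 and 5 with medians of 30888 and 32315. Whether the gate holds the same kind of cell on each day was not tested.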

How the results depend on the processing

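No paired analysis was possible because each day has 1 library, and no replicate could be left out. Of 79 named genes called against all other day 5 cells, none changed direction under any of the 9 alternatives in which cells or the mean were changed. Some calls were lost: of 32 higher and 47 lower genes, 29 and 43 stayed called with 15 or more *Hand1* UMIs, 31 and 43 with 8 or more, 32 and 43 after thinning, and 32 and 45 in cells of 20000 to 40000 UMIs. Ratios of 181 named genes gave 1629 values, of which 358 lay outside the interval of the main ratio. Among the largest moves were those of *Sp5* from 0.137 to 0.0549 in that band of UMIs, *Cldn6* from 0.0168 to 0.0419 and *Dppa5a* from 0.0307 to 0.0125 after thinning, and *Ctla2a* from 0.0690 to 0.0318 without the highest doublet scores. The gate with 15 or more *Hand1* UMIs held 634 cells. The counts against *Hand1*-high *Isl1*-positive cells (1 higher, 15 lower) moved most: without the highest doublet scores 2 were higher, with 8 or more *Hand1* UMIs 0, after thinning 15, in cells of 20000 to 40000 UMIs 8 with 53 lower, by the mean over cells 2 with 25 lower, at 5 CPM 6 with 34 lower, at 50 CPM 0 with 0 lower, and at a ratio of 2, 0 with 1 lower. Against all other day 5 cells (78 higher, 268 lower), 501 were lower at 5 CPM, 28 were higher and 40 lower at 50 CPM, and 18 and 141 at a ratio of 2. Against *Hand1*-low *Isl1*-negative cells (106 higher, 226 lower), 363 were lower by the mean over cells, 439 at 5 CPM, 38 were higher and 22 lower at 50 CPM, and 35 and 99 at a ratio of 2. Clustering gave 2 groups at resolution 0.3 and 10 at resolution 1, against 5. The thinned gate held 21.8%, 19.8%, 7.05% and 0.158% of cells at days 4, 5, 6 and 11. The alternative without the 27 cells led by *Etv2* and *Kdr* was chosen after seeing the data and changed no count by over 1.5 times, though the ratio of *Ctla2a* moved from 0.0690 to 0.0318. Genes under 10 CPM were not compared, which limits what is said of low regulators such as *Nkx2-5*.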
